A study of Mus musculus with 2 samples.

Results

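Trem2, Tyrobp, Gpnmb, Cd9, Cd63, Spp1, Itgax and Lgals3 were followed as the gene programme that is tied to the receptor TREM2 in lipid-associated macrophages. The genes were given as a list of names, and all 8 were found among the 32285 genes of the deposited counts. Single-cell RNA was measured in CD45+ leukocytes sorted from brown adipose tissue (BAT), with 1 library per condition, control and Adipo Δ/Δ. The labels describe both groups as male C57Bl/6 mice of 16 weeks that carry AdipoQ-CreERT2, a tamoxifen-inducible Cre driven by the adiponectin promoter of adipocytes, and ATGLfl/fl, floxed alleles of the lipase ATGL, which starts the breakdown of stored triglyceride. The study's own text gives a younger age for this experiment, and the difference could not be settled. Control mice received vehicle, and Adipo Δ/Δ mice received 200 µL of tamoxifen at 10 mg/ml into the peritoneum every other day during 1 week, followed by 2 weeks without treatment. The driver is one of adipocytes, so the sorted leukocytes are not the cells in which ATGL was targeted, and the number of mice behind a library is not stated. With 1 library per condition, no value has an error between mice and no test between conditions was possible.

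TREM2 is a surface receptor of macrophages and microglia that binds lipids and lipoproteins, and it signals through the adaptor TYROBP, also called DAP12, whose phosphorylated tail recruits the kinase SYK. Macrophages that take up lipid in obese adipose tissue, atherosclerotic plaques and injured brain are known to carry this receptor together with lysosomal and secreted proteins such as GPNMB, CD63, osteopontin and galectin-3. CD9 and CD63 are tetraspanins of the cell surface and of late endosomes, and CD11c, encoded by Itgax, is a leukocyte integrin often used as a marker of adipose tissue macrophages in obesity.

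In the GRCm38 annotation, Trem2 (ENSMUSG00000023992) lies on chromosome 17, 48346401 to 48354147, and Tyrobp (ENSMUSG00000030579) on chromosome 7, 30413760 to 30417585. Gpnmb (ENSMUSG00000029816) lies on chromosome 6, 49036546 to 49070929, Cd9 (ENSMUSG00000030342) on chromosome 6, 125460266 to 125494791, and Cd63 (ENSMUSG00000025351) on chromosome 10, 128900989 to 128912822. Spp1 (ENSMUSG00000029304) lies on chromosome 5, 104435118 to 104441050, Itgax (ENSMUSG00000030789) on chromosome 7, 128129547 to 128150657, and Lgals3 (ENSMUSG00000050335) on chromosome 14, 47367751 to 47386160. All but Cd9 are on the plus strand. The 250 bases before a RefSeq start are shown for Trem2, the receptor, for Gpnmb, the member most restricted to lipid-associated cells, and for Spp1, which had no count in control macrophage-like cells. They are RefSeq sequence of GRCm38.p6 on the plus strand, with capitals for a motif match.
Trem2, chr17:48346151-48346400: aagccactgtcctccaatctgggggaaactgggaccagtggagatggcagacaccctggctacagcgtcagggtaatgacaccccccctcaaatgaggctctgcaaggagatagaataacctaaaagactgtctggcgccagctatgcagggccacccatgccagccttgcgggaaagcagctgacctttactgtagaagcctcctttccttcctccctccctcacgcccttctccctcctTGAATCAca
Gpnmb, chr6:49036268-49036517: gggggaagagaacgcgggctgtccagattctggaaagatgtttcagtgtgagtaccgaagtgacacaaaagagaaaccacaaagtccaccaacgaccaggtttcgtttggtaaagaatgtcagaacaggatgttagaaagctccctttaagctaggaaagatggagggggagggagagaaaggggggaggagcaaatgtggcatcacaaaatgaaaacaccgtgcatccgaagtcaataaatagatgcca
Spp1, chr5:104434861-104435110: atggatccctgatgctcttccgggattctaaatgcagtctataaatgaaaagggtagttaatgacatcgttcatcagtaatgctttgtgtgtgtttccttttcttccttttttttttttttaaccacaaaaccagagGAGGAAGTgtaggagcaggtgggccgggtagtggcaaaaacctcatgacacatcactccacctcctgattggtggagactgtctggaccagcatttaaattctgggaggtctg
Both strands were searched for the E-box letters CACGTG and CATGTG, the AP-1 letters TGANTCA and the PU.1 letters GAGGAAGT. The Trem2 window holds TGANTCA, which 6.75% of all 32851 promoter windows of this length also hold. The Spp1 window shown holds GAGGAAGT, as do 2.44% of all windows, and the Gpnmb window holds none of the 4 motifs. Another RefSeq start of Spp1 has a window at chr5:104435942-104436191, not shown, that also holds none of the 4 motifs. A match describes the letters only, and no binding was measured.

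After barcodes with fewer than 200 detected genes or over 10% mitochondrial counts were left out, 2279 of the 2597 barcodes remained as cells in the control, and 2016 of 2381 in Adipo Δ/Δ. Their median depth was 3678 and 3942 unique molecular identifiers (UMIs, each of which stands for 1 captured transcript), and 4 barcodes occurred in both libraries. The limit of 2% mitochondrial counts stated for the study would leave 1306 and 889 barcodes. The cell numbers that the study gives after its filters are larger, and the gap could not be settled. The cells formed 17 clusters, made with the 8 genes removed from the features, so that their levels did not draw the cluster borders. Clusters were named from marker lists, "-like" marks such a name, and 3 clusters stayed unnamed. Macrophage-like cells numbered 140 in control and 557 in Adipo Δ/Δ. They comprised M2-like cells (61 and 138), matrix cells (49 and 180), lipid-associated cells (13 and 91), and a shallow cluster without a subset (17 and 148 cells, with median depths of 1602 and 833 UMIs), called low-UMI macrophage-like here. M2-like and matrix cells thus made up most of the control class, whereas the Adipo Δ/Δ class was spread over all 4 clusters. The Adipo Δ/Δ library gave 87.5% of the lipid-associated cells, so that the cluster may stand for that library as much as for a cell type. Its name came from marker lists without the 8 genes. All 10 macrophage markers were present in both libraries. The 7 markers of the lipid-associated list summed to 14195 and 13089.7 CPM, the counts scaled to 1000000 UMIs of the cells concerned. The same lists gave the name, so these values describe the cluster and are no separate check of it. The 13 control cells held 30716 UMIs, 8709 of them in a single cell, and had a median of 1348 UMIs against 11934 in the 91 Adipo Δ/Δ cells. Intervals in parentheses are exact 95% intervals (Poisson for CPM, Clopper-Pearson for shares of cells, conditional binomial for ratios) and cover counting error only.

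Trem2, the receptor itself, was highest in lipid-associated cells of both libraries, at 423 CPM (225 to 724) in the control library against 1014 CPM (958 to 1073) in Adipo Δ/Δ. The Adipo Δ/Δ level was the higher one, with a ratio of 2.40 (1.40 to 4.51), and the control level rested on 13 UMIs against 1199. The control interval overlapped that of low-UMI macrophage-like cells, at 104 CPM (28.2 to 265) from 4 UMIs. M2-like cells held 22.6 CPM (7.35 to 52.8) and 163 CPM (138 to 191), a ratio of 7.21 (3.02 to 22.5). In matrix cells, Trem2 had 0 UMIs in the control, whereas Adipo Δ/Δ had 20 UMIs at 14.4 CPM (8.80 to 22.2). The order among macrophage-like cells of the Adipo Δ/Δ library was lipid-associated, then M2-like and low-UMI cells, whose intervals overlapped, then matrix cells. Monocyte-like cells carried Trem2 at like levels in both libraries. In Ly6C high monocyte-like cells it stood at 88.0 CPM (76.9 to 100.2) in the control library against 81.9 CPM (66.4 to 100.04) in Adipo Δ/Δ, a ratio of 0.931 (0.726 to 1.19). In Ly6C low monocyte-like cells it stood at 42.9 CPM (33.5 to 54.2) in the control library against 42.8 CPM (31.4 to 57.1) in Adipo Δ/Δ, a ratio of 0.998 (0.672 to 1.47). Of all control Trem2 UMIs, 90.8% lay in monocyte-like and 6.77% in macrophage-like cells, whereas the Adipo Δ/Δ shares were 8.75% and 86.5%. The main carriers of Trem2 transcripts thus were different cells in the libraries.

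Tyrobp, the signalling adaptor, was expressed throughout the myeloid and NK cells and was not particular to macrophages. It was highest in neutrophil-like cells, at 4674 CPM (4545 to 4805) in the control library against 5406 CPM (5209 to 5608) in Adipo Δ/Δ. In NK cell-like cells, whose activating receptors also use it, it was at 3290.1 CPM (3196 to 3386) in the control library against 3204 CPM (3107 to 3303) in Adipo Δ/Δ. Lipid-associated cells held 4428 CPM (3715 to 5237) and 3021 CPM (2923 to 3122), with the lower level in the Adipo Δ/Δ library and a ratio of 0.682 (0.575 to 0.816). Without the cell of each library with the most Tyrobp UMIs this ratio was 0.764 (0.617 to 0.958). Over all macrophage-like cells the ratio went the other way, at 1.26 (1.17 to 1.35). Tyrobp thus did not share the large Trem2 difference in macrophage-like cells, and in Ly6C high monocyte-like cells its ratio was 1.02 (0.979 to 1.05).

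Gpnmb, a transmembrane glycoprotein of lysosomes, was the member most restricted to one cluster. Lipid-associated cells held 95.1% of the 61 control UMIs and 87.3% of the 559 Adipo Δ/Δ UMIs of this gene. Within the cluster the level was 1888 CPM (1434 to 2441) in the control library against 413 CPM (377 to 451) in Adipo Δ/Δ. The control cells were the higher ones, with a ratio of 0.219 (0.166 to 0.292), but a single control cell held 39 of their 58 UMIs. Without the cell with the most Gpnmb UMIs in each library the ratio was 0.438 (0.277 to 0.735). After each cell was thinned to 1000 UMIs, Gpnmb was present in 9 of 12 cells, or 75.0% (42.8 to 94.5), of the control cluster. In Adipo Δ/Δ it was present in 19 of 89 cells, or 21.3% (13.4 to 31.3). The direction within the cluster thus was opposite to that over all cells, where the level was 5.67 against 49.4 CPM. In M2-like, matrix and low-UMI cells the control had 0 UMIs, and Adipo Δ/Δ had 13, 3 and 3 UMIs.

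Of the tetraspanins, Cd9 was spread over several classes in both libraries, whereas the main source of Cd63 differed between them. Macrophage-like cells held 38.9% and neutrophil-like cells 43.7% of the control Cd63 UMIs, against 90.3% and 1.74% from Adipo Δ/Δ. Lipid-associated cells had the highest Cd9 level, at 716 CPM (449 to 1084) in the control library against 746 CPM (698 to 797) in Adipo Δ/Δ. The ratio was 1.04 (0.684 to 1.67), and the control interval overlapped that of neutrophil-like cells. Neutrophil-like cells followed, at 425 CPM (387 to 466) in the control library against 523 CPM (463 to 589) in Adipo Δ/Δ. NK cell-like cells held 289.5 CPM (262 to 319) and 346 CPM (315 to 379). The larger differences between libraries lay in other cells. Matrix cells went from 1 UMI to 126 UMIs, or from 3.62 CPM (0.0917 to 20.2) to 90.7 CPM (75.6 to 108), a ratio of 25.1 (4.42 to 998). Ly6C high monocyte-like cells held 7.04 CPM (4.17 to 11.1) in the control library against 34.1 CPM (24.4 to 46.5) in Adipo Δ/Δ, a ratio of 4.85 (2.72 to 8.99). In Ly6C low monocyte-like cells the values were 141 CPM (123 to 161) and 277 CPM (246 to 309.9), and the ratio was 1.96 (1.64 to 2.34). This class pools unlike clusters. The cluster led by Cd300e held 299 and 458 CPM, a ratio of 1.53 (1.27 to 1.85). The cluster led by Nr1h3 held 23.5 and 76.4 CPM, a ratio of 3.24 (1.88 to 5.74). Cd9 was higher in the Adipo Δ/Δ library, with an interval above 1, in 8 of the 10 named groups of cells with at least 20 UMIs of it.

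Cd63, a tetraspanin of late endosomes and lysosomes, stood in lipid-associated cells at 1660.4 CPM (1236 to 2183) in the control library against 1873 CPM (1796 to 1953) in Adipo Δ/Δ, with a ratio of 1.13 (0.855 to 1.52). M2-like cells followed with 308 CPM (239 to 390.1) and 568 CPM (521 to 619), a ratio of 1.85 (1.43 to 2.41). In the matrix cluster the control held 1 UMI, or 3.62 CPM (0.0917 to 20.2), and Adipo Δ/Δ 98 UMIs, or 70.6 CPM (57.3 to 86.0). Monocyte-like cells were also higher in Adipo Δ/Δ. Ly6C high cells held 5 control UMIs of Cd63 against 57 from Adipo Δ/Δ, a ratio of 24.9 (10.1 to 79.6). Ly6C low cells held 4 and 39 UMIs, a ratio of 14.8 (5.34 to 57.0). The lipid-associated cells of both libraries thus overlapped in Cd9 and Cd63, while M2-like, matrix and monocyte-like cells had intervals of the ratio above 1. Neutrophil-like cells held 136 CPM (115 to 160.02) and 106 CPM (80.2 to 138), a ratio of 0.780 (0.563 to 1.07).

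Spp1, which encodes the secreted matrix protein and integrin ligand osteopontin, had no UMI in the 140 control macrophage-like cells and 562 UMIs in the 557 Adipo Δ/Δ macrophage-like cells. In place of the control count of 0, 3 UMIs of the class total would be 5.30 CPM. Against that value the Adipo Δ/Δ level of 152 CPM (139 to 165) was 28.6-fold higher, and the exact interval of the ratio began at 23.2. At the study's limit of 2% mitochondrial counts the ratio against 3 UMIs was 8.88, with an interval from 7.14. With no such limit the control count was no longer 0 and the ratio was 90.7 (16.2 to 3588). Lipid-associated cells held 510 of these UMIs, at 431 CPM (395 to 470.5). This was 4.42 times the 97.7 CPM of 3 UMIs among the 30716 control UMIs, with an exact interval from 3.58. Within that cluster Spp1 was unevenly spread, with a median of 0 UMIs per cell, a highest cell of 113 UMIs, and 51.8% of the UMIs in 5 cells. In the control library 62.5% of the 80 Spp1 UMIs lay in NK cell-like cells, where the level was 35.1 CPM (26.1 to 46.3) in the control library against 44.6 CPM (33.8 to 57.6) in Adipo Δ/Δ. NK cell-like cells thus were the main source of Spp1 in the control, at a level whose intervals overlapped between libraries and which had a ratio of 1.27 (0.854 to 1.89). An unnamed cluster led by Tcrg-C4 held another 21 of the control UMIs, at 55.6 CPM, above the NK cell-like level. In Adipo Δ/Δ this cluster held 4 UMIs at 11.2 CPM, a ratio of 0.202 (0.0504 to 0.598). Ly6C high monocyte-like cells had 0 control UMIs against 30 from Adipo Δ/Δ, 25 of them in a single cell. Neutrophil-like cells had 1 UMI and 39 UMIs, a ratio of 78.8 (13.3 to 3192) that rests on 1 control UMI. Doublets were not called, and their part in these UMIs was not tested.

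Itgax, the gene of CD11c, was not highest in lipid-associated cells. NK cell-like cells had the highest level of the named classes in both libraries. They stood at 112 CPM (95.7 to 131) in the control library against 167 CPM (145 to 190.4) in Adipo Δ/Δ. Ly6C low monocyte-like cells pool a cluster led by Cd300e, at 139 and 147 CPM, with one led by Nr1h3, at 18.2 and 27.4 CPM. Taken alone, the Cd300e cluster of the control thus stood above NK cell-like cells. Lipid-associated cells held 2 control UMIs against 177 from Adipo Δ/Δ, at 65.1 CPM (7.89 to 235) and 149.7 CPM (128 to 173), and the ratio of 2.30 (0.627 to 19.1) did not separate them. Matrix cells held 83.3 CPM (52.8 to 125) and 111 CPM (94.1 to 129.9), a ratio of 1.33 (0.856 to 2.16). The intervals of adjacent groups overlapped from NK cell-like cells through lipid-associated, matrix, low-UMI and dendritic cell-like cells to Ly6C low monocyte-like cells of the Adipo Δ/Δ library. Ly6C high monocyte-like cells were nearly devoid of Itgax, with 3 and 7 UMIs.

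Lgals3, which encodes the carbohydrate-binding galectin-3, was a general myeloid transcript with a far higher level in lipid-associated cells. These held 12241 CPM (11035 to 13543) in the control library against 10992 CPM (10804 to 11183) in Adipo Δ/Δ, a ratio of 0.898 (0.810 to 0.998). Without the cell of each library with the most Lgals3 UMIs, the ratio was 1.17 (1.02 to 1.35). Ly6C high monocyte-like cells came next, at 2175 CPM (2118 to 2233) in the control library against 2395 CPM (2308 to 2486) in Adipo Δ/Δ, a ratio of 1.10 (1.05 to 1.15). M2-like cells held 416 CPM (336 to 511) and 982 CPM (919 to 1048), a ratio of 2.36 (1.90 to 2.96). Matrix cells held 894 CPM (786 to 1013) and 1537 CPM (1472 to 1603), a ratio of 1.72 (1.51 to 1.97). Lgals3 was thus higher in the Adipo Δ/Δ library in the 2 other named macrophage subsets, and the direction in lipid-associated cells turned with 1 cell per library. The difference was not bound to macrophage-like cells. Lgals3 was higher, with an interval above 1, in 8 of the 11 named groups with at least 20 UMIs of it. These included B cell-like cells at 1.79 (1.04 to 3.03) and NK cell-like cells at 1.40 (1.05 to 1.88). In neutrophil-like cells it was lower, at 745 CPM (694 to 798) and 563 CPM (501 to 631), a ratio of 0.756 (0.659 to 0.865).

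**Figure D1:**
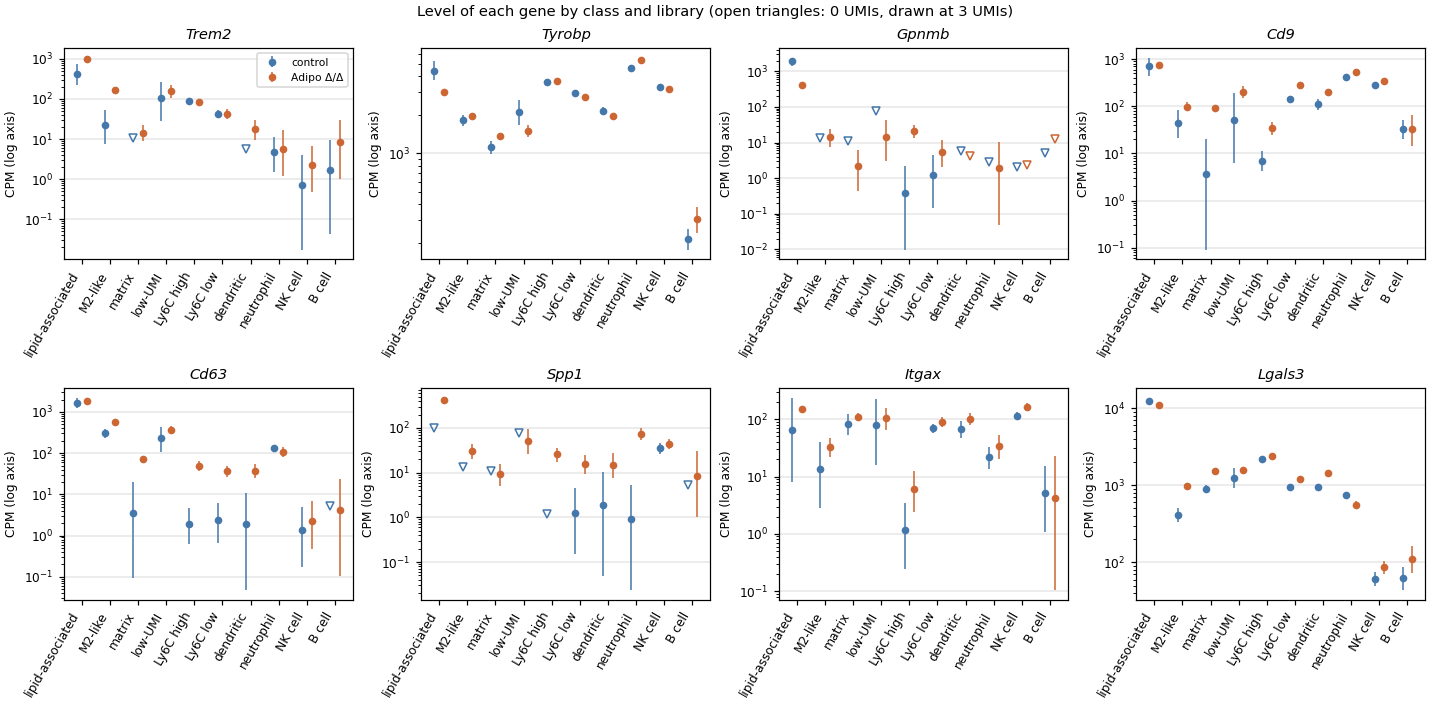
Level of each of the 8 genes in CPM of summed UMIs on a log axis, by class of cells (the first 4 are macrophage-like) and library, with exact 95% Poisson intervals for counting error. Open triangles mark 0 UMIs and stand at the level of 3 UMIs. Among the classes drawn, lipid-associated cells are highest for Trem2, Gpnmb, Cd63 and Lgals3 in both libraries, whereas Tyrobp peaks in neutrophil-like and Itgax in NK cell-like cells.

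Over all macrophage-like cells, 5 of the 8 genes were at least 2-fold higher in the Adipo Δ/Δ library, namely Trem2, Cd9, Cd63, Spp1 and Lgals3, and 0 were at least 2-fold lower. Among all 9009 genes with at least 20 UMIs in this class, 10.0% were at least 2-fold higher and 3.82% at least 2-fold lower. Trem2 stood at 38.8 CPM (24.3 to 58.8) in the control library against 379 CPM (359 to 399) in Adipo Δ/Δ, a ratio of 9.75 (6.41 to 15.6). Cd9 stood at 61.8 CPM (43.0 to 85.9) and 308 CPM (290.5 to 327), a ratio of 4.99 (3.56 to 7.20). The ratio was 3.45 (2.89 to 4.15) for Cd63 and 3.28 (3.05 to 3.53) for Lgals3. The 3 genes below 2-fold were Itgax at 1.89 (1.31 to 2.82), Gpnmb at 1.34 (1.02 to 1.79) and Tyrobp at 1.26 (1.17 to 1.35). Without the cell with the most Gpnmb UMIs in each library, its ratio was 3.64 (2.31 to 6.11). The class differed in makeup: lipid-associated cells gave 5.42% of the control UMIs and 31.9% of the Adipo Δ/Δ UMIs. The Adipo Δ/Δ levels of the 4 clusters were also weighted by the control makeup, a calculation added after the values were seen. Trem2 was then at 3.51 and Cd9 at 2.22 times the control level, and Spp1 at 43.3 CPM against 0. Cd63 was at 1.68, Lgals3 at 1.36 and Gpnmb at 0.292 times the control level. Without the lipid-associated cluster, Trem2 was at 4.81, Cd9 at 4.25 and Spp1 at 3.68 against 3 control UMIs, and the other members were below 2-fold. The share of all genes past 2-fold is not given for either calculation, and the 10.0% above belongs to the class as measured. With the class gated by at least 4 of 10 macrophage markers in place of clusters, the ratio was 3.48 (2.86 to 4.27) for Trem2, 5.73 for Cd63, 3.66 for Itgax and 2.28 for Gpnmb.

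Markers of other cell types were measured beside these ratios. In lipid-associated cells, the 7 T cell, 7 B cell, 7 NK cell and 7 dendritic cell markers had 0 UMIs each in the 13 control cells, and 6, 8, 14 and 4 summed UMIs in the 91 Adipo Δ/Δ cells. Adipocyte transcripts had 0 and 6 UMIs over 9 genes, with Adipoq, the adiponectin gene, at 0 in both. The other lists summed to more. The values in control and Adipo Δ/Δ lipid-associated cells were 358 and 56.7 CPM for 7 neutrophil markers, 293 and 341 CPM for 7 Ly6C high monocyte markers, and 651 and 354 CPM for 5 plasmacytoid dendritic cell markers, of which Siglech was at 0 in both. Over all macrophage-like cells, neutrophil markers were higher in the control, with all 7 present at a sum of 1669.8 against 200.2 CPM. All 7 NK cell markers were also present there, at 219 against 18.1 CPM. The part of neutrophil transcripts in the ratios was not tested. Without the 6 control and 8 Adipo Δ/Δ cells with at least 2 UMIs over Cd3d, Cd3e, Cd79a, Cd79b and Klrb1c, Trem2 was at a ratio of 9.53. The count of members at least 2-fold higher stayed at 5, with no share over all genes given for this setting.

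In Ly6C high monocyte-like cells, 4 of the 7 genes with at least 20 UMIs (Gpnmb, Cd9, Cd63 and Spp1) were at least 2-fold higher in the Adipo Δ/Δ library, against 3.23% of all genes, and 0 were at least 2-fold lower, against 1.78%. Gpnmb rested there on 1 UMI and 25 UMIs, 16 of them in a single cell, with a ratio of 54.6 (8.93 to 2240.4). Without the cell of each library with the most Spp1 UMIs, 5 Spp1 UMIs were left in these cells. Cd9 and Cd63 were found in more cells, in 21 and 18 of 168 Adipo Δ/Δ cells against 15 and 4 of 367 control cells. Still, 5 Adipo Δ/Δ cells held 52.5% of the Cd9 UMIs, and 5 held 70.2% of the Cd63 UMIs. Without the cell of each library with the most UMIs of the gene, the ratios were 4.87 (2.57 to 9.66) and 33.9 (10.9 to 170.4). The 4 Adipo Δ/Δ cells of this class with at least 3 of Trem2, Gpnmb, Cd9, Spp1 and Itgax were deep. They had a median of 16711.5 UMIs, against 5928 over the cluster. Macrophage markers were also higher, at a summed 1388 CPM in the control and 1994 CPM in the Adipo Δ/Δ cells, as did the 7 genes of the lipid-associated list, at 365 and 988 CPM. Their part in the difference was not tested. In Ly6C low monocyte-like cells, 1 of 6 genes, Cd63, was at least 2-fold higher, against 4.51% of all genes, and 0 were lower, against 1.54%.

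**Figure D2:**
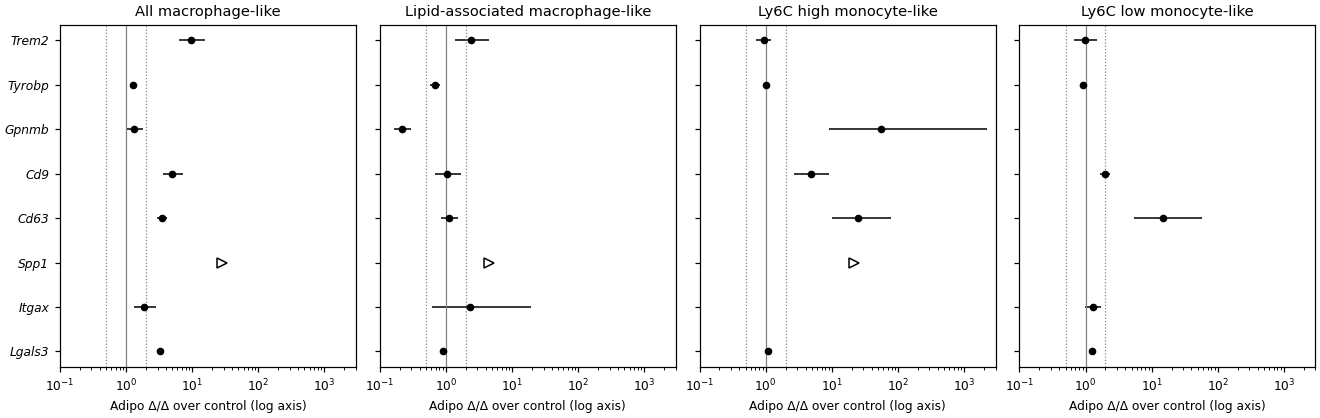
Ratio of the CPM in the Adipo Δ/Δ over the control library on a log axis for each gene with at least 20 UMIs, with 95% conditional binomial intervals for counting error. Triangles mark lower bounds where the control had 0 UMIs, the solid line marks 1 and the dotted lines mark 0.5 and 2. Trem2 lies at 9.75 over all macrophage-like cells, at 2.40 in lipid-associated and near 1 in monocyte-like cells, while Gpnmb lies below 0.5 in lipid-associated cells.

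Shares of cells with a UMI depend on depth, so each cell was thinned to 1000 UMIs, which left out 7 control and 110 Adipo Δ/Δ macrophage-like cells with fewer. B cell-like cells, which should lack these genes, served to gauge RNA that floats free of cells, at median depths of 1803 and 2101 UMIs. In control macrophage-like cells, Trem2 was detected in 5 of 133 cells, or 3.76% (1.23 to 8.56). In Adipo Δ/Δ it was detected in 79 of 447 cells, or 17.7% (14.2 to 21.5). This compares with 0 of 211 and 0 of 77 B cell-like cells, where 3 cells would be 1.42% and 3.90%. Without thinning, the macrophage-like shares of Trem2 were 9.29% and 31.1% at median depths of 2914 and 4585 UMIs. In M2-like cells Trem2 was found in 1 of 58 thinned control and 17 of 131 thinned Adipo Δ/Δ cells. Among lipid-associated cells it was found in 4 of 12 cells, or 33.3% (9.92 to 65.1), in control, and in 47 of 89 cells, or 52.8% (41.9 to 63.5), in Adipo Δ/Δ. These intervals overlapped, so a difference in the share of Trem2-positive lipid-associated cells was not detectable with 12 control cells. Spp1 was found in 0 of 12 control lipid-associated cells, and in Adipo Δ/Δ in 18 of 89 cells, or 20.2% (12.4 to 30.1). Cd63 was found in 66.7% and 78.7% of lipid-associated cells, and Cd9 in 41.7% and 51.7%. For Lgals3 and Tyrobp the B cell-like shares were not negligible. Lgals3 had a UMI in 4.74% of control and 7.79% of Adipo Δ/Δ B cell-like cells, and Tyrobp in 13.3% and 9.09%. Lgals3 was also present in plasma cell-like cells, with 6.15 CPM over 12 control and 291 CPM over 8 Adipo Δ/Δ cells. With the UMIs per B cell-like cell subtracted from each library, also added after the values were seen, the macrophage-like ratio was 9.90 for Trem2 and 3.33 for Lgals3.

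**Figure D3:**
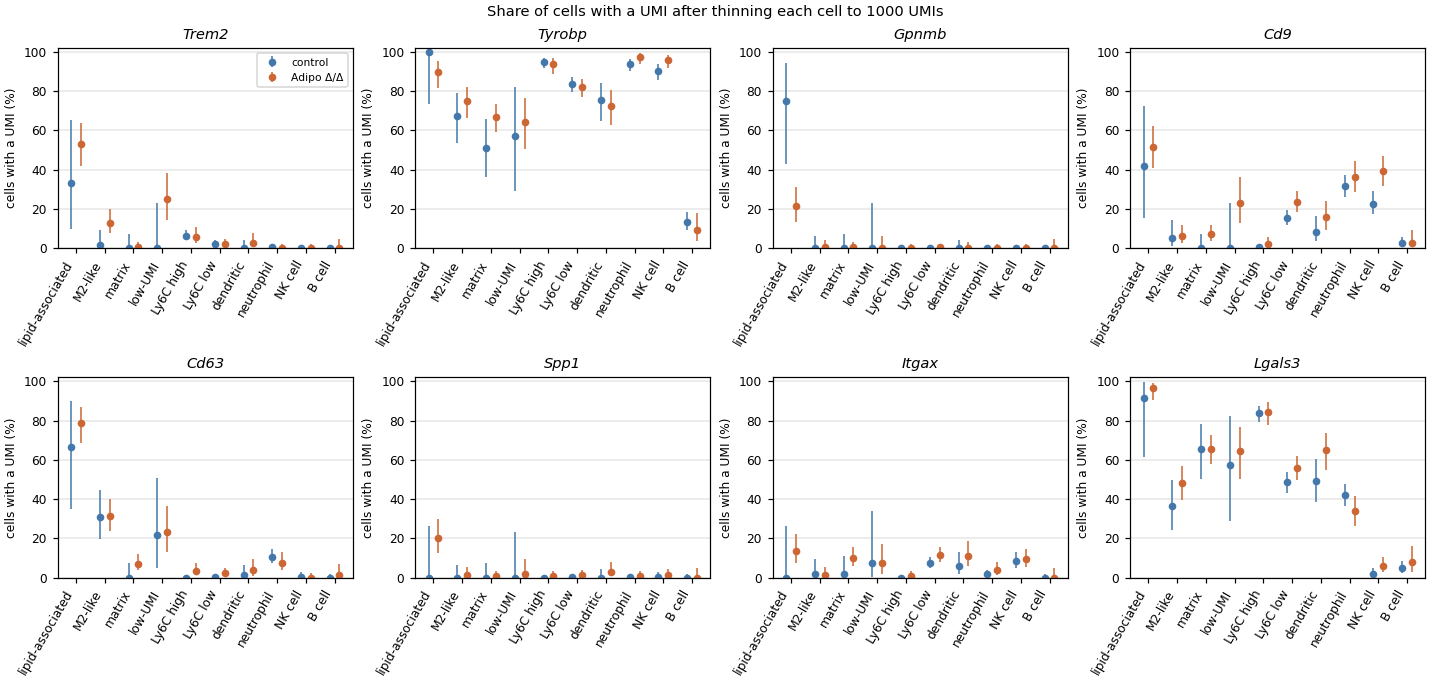
Percentage of cells with at least 1 UMI of each gene by class and library after each cell was thinned to 1000 UMIs, with Clopper-Pearson 95% intervals. Trem2 reaches 52.8% in Adipo Δ/Δ lipid-associated cells, and Gpnmb reaches 75.0% in 12 control and 21.3% in 89 Adipo Δ/Δ lipid-associated cells.

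After thinning, cells that held at least 3 of Trem2, Gpnmb, Cd9, Spp1 and Itgax together were mostly lipid-associated. In cells thinned to 1000 UMIs, lipid-associated cells held a median of 4 of the 8 genes in each library, M2-like cells 1 in control and 2 in Adipo Δ/Δ, Ly6C high monocyte-like cells 2 in each, and B cell-like cells 0. In Ly6C high monocyte-like cells these were largely Tyrobp and Lgals3, at 94.6% and 83.7% of control cells. A set of 5 genes (Trem2, Gpnmb, Cd9, Spp1 and Itgax), which leaves out Tyrobp, Lgals3 and Cd63, was therefore taken alone. At least 3 of them were found together in 1 of 133 cells, or 0.752% (0.0190 to 4.12), of the control macrophage-like class. In Adipo Δ/Δ the share was 20 of 447 cells, or 4.47% (2.75 to 6.83). Without thinning these shares were 3 of 140 cells, or 2.14% (0.444 to 6.13), and 95 of 557 cells, or 17.1% (14.0 to 20.4). Of all 22 Adipo Δ/Δ cells with at least 3 of the 5 after thinning, 19 were lipid-associated, 1 was M2-like, 1 was neutrophil-like and 1 lay in an unnamed cluster led by Gm26917 and Scd1. The single such control cell was the deepest lipid-associated one, with 8709 UMIs. Within the lipid-associated cluster the share was 1 of 12 cells, or 8.33% (0.211 to 38.5), in control and 19 of 89 cells, or 21.3% (13.4 to 31.3), in Adipo Δ/Δ, and these intervals overlapped. Without thinning, 11 of the 19 control cells with at least 3 of the 5 were NK cell-like, which carry Cd9, Itgax and Spp1. In Adipo Δ/Δ, 71 of the 140 such unthinned cells, or 50.7%, were lipid-associated. The others included 13 M2-like, 10 matrix, 10 NK cell-like and 9 Ly6C low monocyte-like cells. The restriction to lipid-associated cells thus was weaker without thinning. All 8 genes were present in 9 unthinned cells, all of them lipid-associated cells of the Adipo Δ/Δ library. Of the 8 Adipo Δ/Δ plasma cell-like cells, 2 held at least 3 of the 5 without thinning, at a median of 24773 UMIs. So did 2 Adipo Δ/Δ neutrophil-like cells, at a median of 18700.5 UMIs against 2720 over that cluster. No doublet caller was run, and the part of doublets in such cells was not tested.

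**Figure D4:**
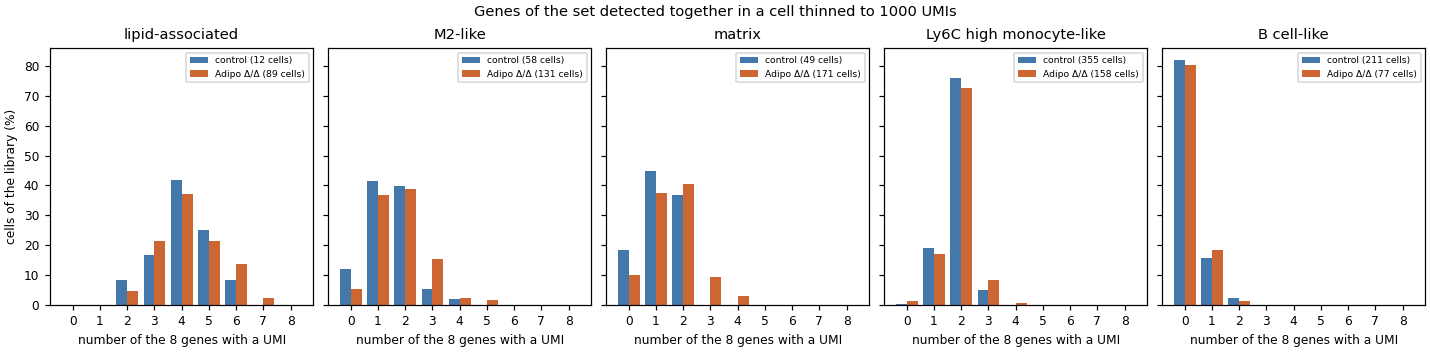
Percentage of cells of each library by the number of the 8 genes with a UMI, after each cell was thinned to 1000 UMIs, in 5 groups of cells. Lipid-associated cells centre on 4 genes in both libraries (12 and 89 cells), Ly6C high monocyte-like cells on 2 and B cell-like cells on 0.

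Pairs of genes were compared in the 447 thinned Adipo Δ/Δ macrophage-like cells. Among the 79 cells with Trem2, 13.9% also had Gpnmb, against 2.72% of cells without Trem2. Cd63 was present in 60.8% of Trem2-positive and 23.9% of Trem2-negative cells, and Cd9 in 36.7% and 13.6%. Itgax hardly differed by Trem2, at 8.86% and 7.61%. Within the 89 lipid-associated cells the shares by Trem2 were nearly equal, with Gpnmb present in 21.3% of the 47 cells with Trem2 and 21.4% of the 42 cells without. Spp1 was more frequent with Gpnmb, in 8 of 19 cells with Gpnmb (42.1%) and in 14.3% of the 70 cells without. Itgax was less frequent with Gpnmb, in 0 of the 19 cells with Gpnmb and in 17.1% of the 70 without. Without thinning, Itgax was present in 18 of 46 lipid-associated cells with Gpnmb (39.1%) and in 62.2% of the 45 cells without. These shares describe cells of 1 library and carry no test.

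Over all CD45+ cells, 6 of the 8 genes were at least 2-fold higher in the Adipo Δ/Δ library, against 7.81% of 12080 genes with at least 20 UMIs. Of the 8 genes, 0 were at least 2-fold lower, against 2.36% of all genes. Cd9 was at 1.80 times and Tyrobp at 0.864 times its control level. Fewer cells of a class and less RNA of a gene per cell cannot be told apart in such a sum, so the levels were weighted by the share of each cluster in the control UMIs. Macrophage-like cells made up 5.27% of all control UMIs and 32.8% of all Adipo Δ/Δ UMIs. Trem2 was at 4.74 times the control level as measured and at 1.30 times with the control makeup. For Cd63 these values were 9.24 and 1.85, for Gpnmb 8.71 and 1.56, and for Lgals3 2.29 and 1.19. For Spp1 they were 9.18 and 3.77. The reverse weighting, control levels with the Adipo Δ/Δ makeup, gave 2.03 for Trem2, 7.06 for Cd63, 2.15 for Lgals3 and 0.926 for Spp1. These values were near the measured ratio for Cd63 and Lgals3, but not for Trem2 or Spp1. For Gpnmb the reverse weighting gave 34.8, a value that rests on the 58 UMIs of 13 control cells. The lipid-associated levels of the other genes in this weighting came from the same cells. They held 51 UMIs of Cd63, 376 of Lgals3, 13 of Trem2 and 0 of Spp1. For Cd63, Lgals3 and Trem2, 20, 174 and 6 of these UMIs lay in a single cell. The contrast between genes thus rests on few control cells.

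**Figure D5:**
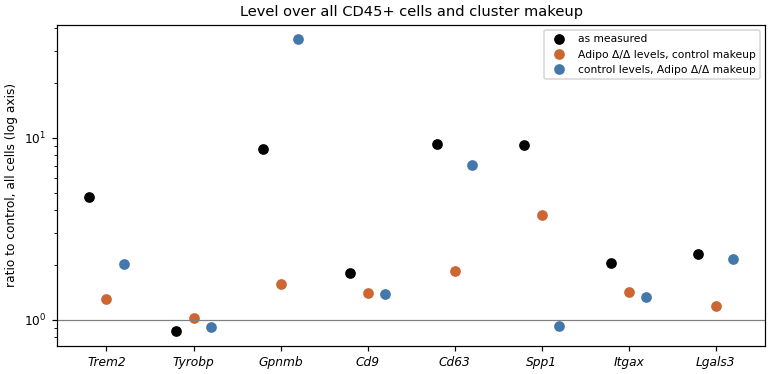
Ratio to the control level over all CD45+ cells on a log axis for each gene, as measured, with Adipo Δ/Δ levels at the control cluster makeup, and with control levels at the Adipo Δ/Δ makeup. With the control makeup the ratios lie between 1.02 and 3.77, with Spp1 highest.

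Other genes of the pathway were counted in macrophage-like cells by the same 2-fold rule, beside a median over all 9009 genes of 0.10 on the log2 scale. In this class 10.0% of all genes were at least 2-fold higher and 3.82% at least 2-fold lower, so a count of 0 in a short list is near that share. Of 10 signalling genes downstream of TYROBP, 0 were past 2-fold in either direction, and their median log2 ratio was 0.20. Card9, an adaptor downstream of SYK, had the largest ratio, with 3.53 against 6.74 CPM, a ratio of 1.91 (0.476 to 16.6), and Hcst, the related adaptor DAP10, the smallest, with 116 against 70.4 CPM, a ratio of 0.604 (0.460 to 0.804). Of 5 other TREM family genes, 2 had enough UMIs, and Trem3 was lower at 12.4 against 3.51 CPM, a ratio of 0.284 (0.105 to 0.840), on 7 and 13 UMIs. Of 13 other receptors that couple to TYROBP, 9 could be compared, 2 were higher and 2 lower. The extremes were Sirpb1c, with 10.6 against 32.1 CPM, a ratio of 3.03 (1.35 to 8.43), and Trem3, and Siglech was the other lower one at 0.387. Apoe, a lipoprotein that TREM2 binds, was at 2439 against 1892 CPM, a ratio of 0.775 (0.732 to 0.822), below 1. Adam10 and Adam17, proteases that shed TREM2, were at ratios of 0.905 and 1.45.

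Of 9 other genes known from lipid-associated macrophages, 7 were at least 2-fold higher and 0 lower, with a median log2 ratio of 1.32. Of these genes, 7 also served to name the lipid-associated subset. Plin2, which coats lipid droplets, had the largest ratio at 115 against 693 CPM, a ratio of 6.04 (4.72 to 7.85), and Ctsl, a lysosomal protease, followed at 77.7 against 278 CPM, a ratio of 3.57 (2.64 to 4.95). Fabp5 and Fabp4, fatty acid carriers, had the smallest, at 1.44 and 1.49. Of 15 genes of disease-associated microglia, 14 were matched, 11 could be compared, and 5 were higher and 0 lower. Cadm1, an adhesion molecule, was highest at 10.6 against 46.9 CPM, a ratio of 4.43 (2.00 to 12.2), and Ctsd, a lysosomal protease, was at 522 against 1619 CPM, a ratio of 3.10 (2.76 to 3.49).

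Family members of the tetraspanins, galectins and integrins were counted in the same way. Of 11 other tetraspanins, 0 were past 2-fold, again near the share over all genes, with ratios from 0.647 for Tspan13 to 1.68 for Tspan4. Of 5 other galectin genes, 4 could be compared and 1 was higher, Lgals1 (galectin-1), at 604 against 1551 CPM, a ratio of 2.57 (2.30 to 2.87). Of 11 integrin genes and osteopontin receptors, 9 could be compared. Itgav, a chain of osteopontin receptors, was higher at 24.7 against 61.8 CPM, a ratio of 2.50 (1.46 to 4.65), and Itgal, the gene of CD11a, was lower at 70.6 against 25.4 CPM, a ratio of 0.359 (0.246 to 0.534). Itgb2, which pairs with CD11c, was at 1.54, and Itga4, a chain of another integrin, at 0.839. The 4 MiT/TFE genes, which encode regulators of lysosomal genes such as Gpnmb, all lay between 0.879 for Tfec and 0.941 for Mitf.

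Genes with the most similar levels were sought over 30 sums of cells (clusters by library with at least 20 cells), by Pearson correlation of log2(CPM + 1) among 10670 genes with at least 50 UMIs. These sums share libraries and cell types, so the values are a description. For Trem2 they were Cfb (r = 0.856), Cstb (0.842) and Gdf3 (0.836). For Gpnmb they were Akr1b8 (r = 0.876), Atp6v0d2 (0.839) and Gdf3 (0.838), where Atp6v0d2 encodes a subunit of the lysosomal proton pump. Gdf3, a secreted factor of the TGF-beta family, was near both. For Tyrobp they were Fcer1g (r = 0.967), Rnf130 (0.929) and Anxa2 (0.911), of which Fcer1g encodes another adaptor of immune receptors. For Cd63 they were Pf4 (r = 0.856), C1qc (0.855) and Igf1 (0.850), with C1qc encoding a complement chain of macrophages. For Lgals3 they were Arl11 (r = 0.898), Mpeg1 (0.898) and Rab7 (0.896). Itgax was nearest to Bhlhe40 (r = 0.845), Pdgfb (0.824) and Ywhah (0.813), Cd9 to Dusp5 (r = 0.743), Trpv2 (0.724) and Vegfa (0.693), and Spp1 to Nek6 (r = 0.776), Srxn1 (0.749) and Syngr1 (0.732). Between members, the highest values were 0.734 for Trem2 with Gpnmb and 0.726 for Tyrobp with Lgals3, and the lowest was 0.167 for Gpnmb with Tyrobp.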

How the data were processed

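CD45+ cells sorted from BAT, 1 library per condition, were captured with 3′ droplet chemistry. Per the file headers, the deposited values are raw UMI counts that the authors made with Cell Ranger 4.0.0. The submitters' processing notes name the build mm10. The 8 genes and all lists were chosen with earlier results of these data known, and the thresholds of the naming rule were set after the data were seen. The genes named are the 8 members, the 3 genes most like each, and up to 4 per list with the largest and smallest ratios; others are named as background or as leading genes and were chosen after their values were seen.

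Barcodes with at least 200 genes and at most 10% mitochondrial counts were kept. Libraries were normalized with sctransform 0.4.2 and anchor-integrated (Seurat 5.3.0, R 4.3.3) on 1992 of 2000 features (members dropped), 20 principal components and a resolution of 1. A name needed at least 3 markers detected in 10% of cells. Unnamed clusters, and the T cell-like class, of which 1 cluster was led by a marker of another class, entered no comparison of single classes. The exception is Spp1 in the unnamed cluster led by Tcrg-C4. Unnamed clusters and T cell-like cells were part of the sums over all CD45+ cells and the makeup weightings. They also entered the search for cells with several genes and the sums used for similar genes. Levels are summed counts as CPM, and zero counts were bounded at 3 UMIs. Intervals were computed with SciPy 1.17.1. Cells were thinned by drawing UMIs without replacement. The script was tested on simulated data. Doublets were not called. Alternatives changed 1 choice at a time: the mitochondrial and gene limits, resolution, integration, features, class definition, scaling, fold, thinning and single cells. Promoter sequences are from RefSeq, matched by symbol for 7 of the 8 genes.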

Additional observations from a re-analysis of the deposited data

Results flagged for a closer look

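In 5 named groups of cells a gene was lower in the Adipo Δ/Δ library by more than counting error while it was higher in at least 1 other group, and these differences between groups were not tested. Unnamed clusters were not part of this count. For Tyrobp the ratio was 0.682 in lipid-associated cells, 0.710 in low-UMI macrophage-like cells, 0.929 in Ly6C low monocyte-like cells and 0.908 in dendritic cell-like cells, against 1.16 in neutrophil-like and 1.23 in matrix cells. For Gpnmb it was 0.219 in lipid-associated cells, against 54.6 in Ly6C high monocyte-like cells, where the control had 1 UMI. For Lgals3 it was 0.898 in lipid-associated and 0.756 in neutrophil-like cells, against 2.36 in M2-like cells.

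The 318 control and 365 Adipo Δ/Δ barcodes left out by the filters also held these genes, and for 4 of them the Adipo Δ/Δ level was higher with intervals that did not overlap. Trem2 was at 12.2 CPM in left-out control and 81.4 CPM in left-out Adipo Δ/Δ barcodes. Cd63 was at 55.7 and 243 CPM, Spp1 at 5.23 and 43.5 CPM, and Lgals3 at 199 and 556 CPM. For Trem2, Cd63, Spp1 and Lgals3 the intervals did not overlap. Gpnmb, at 0 and 12.6 CPM, and Itgax, at 33.1 and 68.8 CPM, were higher with overlapping intervals, as Cd9 was lower, at 159 and 135 CPM. Tyrobp was lower without overlap, at 1387 and 1016 CPM.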

How the results depend on the processing

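With 1 library per condition, no library could be left out, and intervals cover counting error only. No paired analysis was possible because the libraries share only the replicate number 1. Of 134 values of the macrophage-like ratios over 17 alternatives, 132 lay above 1. These values come from the same genes, the same libraries and overlapping cells, so they are not independent of each other. The share of all genes above 1 is not given, and the median log2 ratio over all genes of this class was itself positive, at 0.10. Tyrobp turned to 0.778 when the class was gated by at least 4 of 10 macrophage markers instead of clusters, and Gpnmb to 0.292 with the subset makeup of the control; the causes were not tested. At most 2% mitochondrial counts gave 14.4 for Trem2, 6.26 for Cd63, 2.09 for Gpnmb and 1.23 for Itgax. Without the top cell of each library Gpnmb was at 3.64. Scaling by the median ratio of genes with at least 50 UMIs lowered every log2 ratio by 0.11. The count of genes at least 2-fold higher, 5, was 3 with the control makeup and 3 without the lipid-associated cluster (both added after seeing the data), and stayed within 1.5 times in the other 17 alternatives. The share over all genes is not given for these alternatives. The share of macrophage-like cells with at least 3 of the 5 genes Trem2, Gpnmb, Cd9, Spp1 and Itgax, 0.752% in control and 4.47% in Adipo Δ/Δ, was 0% and 2.28% with the marker gate, 0% and 0.539% at 500 UMIs, 1.11% and 8.81% at 2000 UMIs, 2.14% and 17.1% unthinned, and 0% and 0% without the lipid-associated cluster. For at least 2 of 5 it was 5.26% and 13.2%, and for Trem2 with Gpnmb 1.50% and 2.46%.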
